A study of Mus musculus with 4 samples.

Results

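The genes of the respiratory chain and of ATP synthase were examined in group 3 innate lymphoid cells (ILC3s) of mice, lymphocytes without antigen receptors that guard mucosal surfaces. Members were chosen by gene symbol: those starting with Nduf, Uqcr, Cox4, Cox5, Cox6, Cox7, Cox8 or Atp5, plus Sdha, Sdhb, Sdhc, Sdhd and Cycs. This gave 95 of the 24343 genes in the count table, held in 121 transcript rows. The cells had the phenotype Lin-CD127+IL23R-GFP+ and came from IL23R-GFP/WT mice, in which GFP reports activity of the IL-23 receptor locus and the other copy of that locus is wild type. All 4 libraries share this genotype and sort. In 1 group, taken here as the libraries whose labels carry no mark of TL1A, the cells were kept in medium (2 libraries, medium 1 and medium 2), and in the other they were stimulated with TL1A (2 libraries, TL1A 1 and TL1A 2), a cytokine of the TNF superfamily that signals through the receptor DR3. The question was how TL1A changes the transcripts of these cells. The sources used here do not give the age of the animals, the tissue, the dose or the duration. Whether the libraries of a group came from separate animals or cultures is not stated, so p-values measure the spread between these libraries only, which may be technical.

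The respiratory chain passes electrons from NADH and succinate to oxygen and pumps protons across the inner mitochondrial membrane. Complex I takes electrons from NADH, complex II from succinate, complex III hands them to cytochrome c, and complex IV reduces oxygen. ATP synthase lets the protons flow back and makes ATP. All members examined here are nuclear genes. The proteins they encode are imported into mitochondria, where the complexes other than complex II also take in subunits encoded by mitochondrial DNA. Transcripts of the mitochondrial genome, with 0 matched rows, were not analysed here.

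Reads assigned to transcripts numbered 11495636 in medium 1, 12222552 in medium 2, 11849977 in TL1A 1 and 12605164 in TL1A 2. The members took 1.34% of them in both medium libraries and 1.27% and 1.29% with TL1A. Of the 10 ILC3 markers, 9 had reads in every library. Il22, 1 of them, went from 56.5 and 38.9 CPM (reads scaled to a common library total) in medium to 6830 and 7120 with TL1A, and the others summed to 9520 and 10000 CPM in medium and 6310 and 6130 with TL1A. Some markers of other cell types were at 0 in every library. Among them were Cd8a (T cells), Ms4a1 and Pax5 (B cells), Itgam and S100a9 (myeloid cells), Col1a1 (stroma), and Hbb-bt and Hba-a1 (red cells). Of these, Cd8a, Itgam and S100a9 have 2 transcript rows each, for which a count of 0 says little, as described below. Reads in every library were found for 2 of 5 T cell, 2 of 5 B cell, 5 of 8 myeloid, and 3 of 6 epithelial and stromal markers. The summed level of the 5 T cell markers found was 1.67 and 4.64 CPM in medium and 5.21 and 5.95 with TL1A. That of the 5 B cell markers was 36.5 and 47.8 CPM in medium and 114 and 97.8 with TL1A. The 8 myeloid markers summed to 103 and 113 CPM in medium and to 61.6 and 70.4 with TL1A. For the 6 epithelial and stromal markers the sums were 13.7 and 7.56 CPM in medium and 4.84 and 3.88 with TL1A. The part of these cells and of the ILC3 markers in the results below was not tested.

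With TL1A, many subunit genes of all 5 complexes rose by a modest amount, and few fell. Of the 95 members, 78 had enough reads to be tested, and 29 of these were higher and 3 lower in the quasi-likelihood test of edgeR (adjusted p under 0.05, by Benjamini-Hochberg over all genes tested), while 46 did not pass. Among all 9852 genes tested, 20.6% were called higher and 21.7% lower; among the tested members the shares were 37.2% and 3.85%. The increases were small. They ran from 1.24-fold to 2.74-fold, with a median log2 fold change of 0.48, and 1 member, the assembly factor Ndufaf6, reached 2-fold. In all 32 called members the libraries of the groups did not overlap in CPM, and in 23 of the 46 others they did. With 2 libraries a group, a call nearly requires such a separation, and it was not counted over all tested genes. These counts therefore describe the members only and add no support to the calls. In bulk RNA, more cells of a type and more RNA per cell cannot be told apart.

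The size of these differences rests on how the libraries are scaled. CPM values below are scaled by effective library size (TMM), which had factors of 1.09 in both medium libraries and 0.908 and 0.921 with TL1A. The median log2 fold change of the tested members was 0.195, against -0.029 for all tested genes. With library size as the only scaling, the member median turned to -0.064 and that of all genes to -0.287, and 12 members were called higher and 11 lower, beside 13.3% and 35.3% of all genes. The distance between the medians was 0.224 with TMM, with RLE factors and with library size only, and 0.223 with upper quartile factors, since a scaling shifts all genes by nearly the same amount. Each difference below, where TMM is used, therefore is one relative to the typical tested gene and not to all reads. As a share of all assigned reads the members together did not rise. They took 1.34% in both medium libraries and 1.27% and 1.29% in the TL1A libraries. Of the 32 called members, 14 kept their call in all 4 scalings, 12 of them higher.

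**Figure D1:**
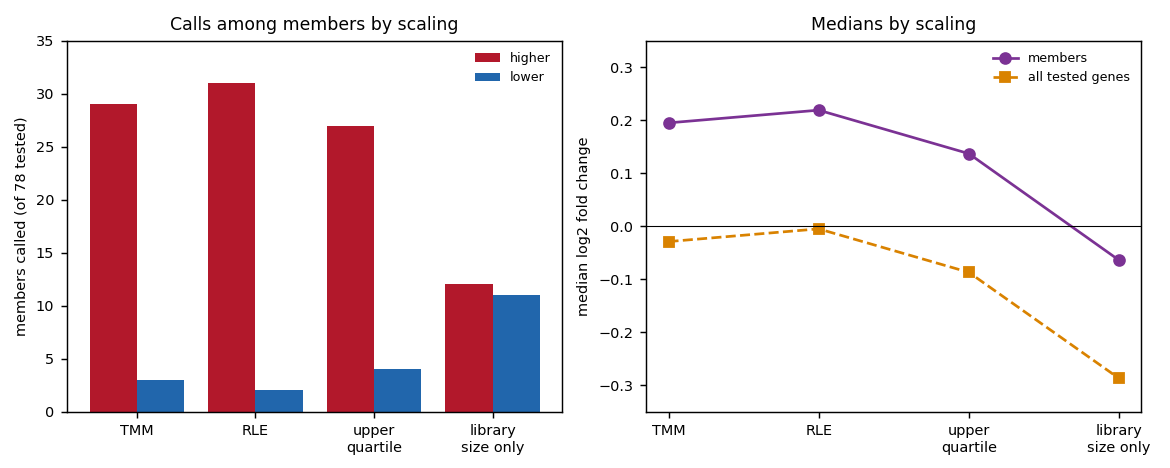
Calls and medians of the respiratory chain and ATP synthase genes under 4 ways of scaling the libraries. The left panel gives the number of members called higher (red bars) or lower (blue bars) out of 78 tested; the right panel gives the median log2 fold change of TL1A against medium for the members (circles) and for all tested genes (squares). Calls fall from 29 higher and 3 lower with TMM to 12 higher and 11 lower with library size only, where the member median turns negative, while the distance between the lines stays at 0.223 to 0.224.

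Genes of respiratory chain subunits are known targets of the transcription factors NRF1 and GABP and of YY1, so the promoters of the members were searched for the cores of their motifs. The searched letters were GCATGCGC for NRF1, CCGGAAG for the ETS motif of GABP and AAGATGGCG for YY1, on both strands, in the 250 bases before to the 50 bases after each gene's start in RefSeq (GRCm38.p6). An entry was found for 77 members and for 7757 of all tested genes. The NRF1 core was in 13 of the 77 members (16.9%) and in 5.92% of the tested genes. The ETS core was in 19 members (24.7%) and in 21.3% of the tested genes, and the YY1 core in 8 members (10.4%) and in 3.89%. No member entry held motifs of different names that overlap; the NRF1 core overlaps itself on the opposite strand where the letters form a palindrome. Shown here are stretches around the matches of 6 members described below, picked from the called members and Cycs as examples of a match upstream of the start, in lower case with the match in capitals. The first 4 hold the NRF1 core and the others the ETS core read on the opposite strand. They lie at chr4:140961187-140961254 (Sdhb, plus strand), chr5:108434410-108434479 (Atp5k, minus strand), chr17:56717672-56717741 (Ndufa11, plus strand), chr6:50566592-50566659 (Cycs, minus strand), chr9:50603859-50603925 (Sdhd, minus strand) and chr7:30626115-30626172 (Cox6b1, minus strand), each printed 5′ to 3′ on the strand of its gene.
Sdhb: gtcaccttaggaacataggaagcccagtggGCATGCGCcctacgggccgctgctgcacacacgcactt
Atp5k: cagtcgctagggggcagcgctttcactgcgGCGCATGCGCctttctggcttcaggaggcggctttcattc
Ndufa11: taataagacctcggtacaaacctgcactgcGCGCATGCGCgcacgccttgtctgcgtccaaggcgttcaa
Cycs: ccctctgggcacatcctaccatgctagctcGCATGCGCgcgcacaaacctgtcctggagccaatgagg
Sdhd: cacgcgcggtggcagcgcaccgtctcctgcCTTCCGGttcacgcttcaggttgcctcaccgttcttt
Cox6b1: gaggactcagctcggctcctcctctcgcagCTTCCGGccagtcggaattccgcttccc
In Atp5k and Ndufa11 the capitals span the core on both strands. A match is a description of letters and not a site of binding. Of the 13 tested members with the NRF1 core, 3 were called higher and 0 lower (edgeR; 5 and 0 at an unadjusted p under 0.05, 2 and 0 with DESeq2, 3 and 0 with limma-voom), with a median log2 fold change of 0.157; of the 53 tested members with an entry and without it, 21 were higher and 3 lower, with a median of 0.205. For the ETS core, 7 of 18 were higher and 1 lower (median 0.14), and without it 17 of 48 were higher and 2 lower (median 0.199). For the YY1 core, 4 of 7 were higher and 0 lower (median 0.313; DESeq2 and limma-voom gave the same counts, as did an unadjusted p under 0.05), and without it 20 of 59 were higher and 3 lower (median 0.165). These are counts over few genes, to be read beside the 20.6% of all tested genes called higher and 21.7% called lower. No difference between members with and without a motif was tested.

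**Figure D2:**
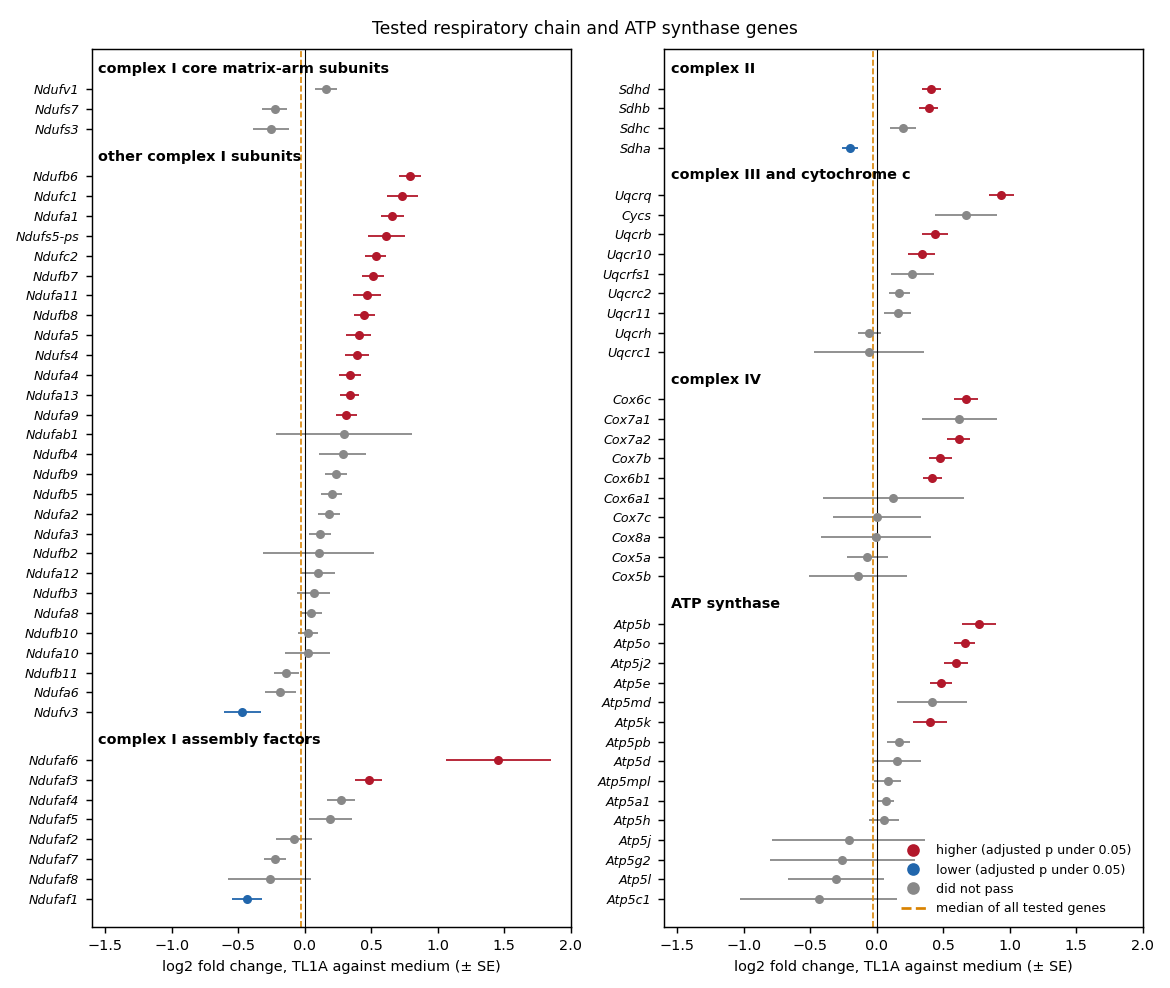
Log2 fold change of TL1A against medium, on the horizontal axis, for 77 of the 78 tested members, ordered within each complex; bars are standard errors. Red marks the 29 members called higher, blue the 3 called lower (Ndufv3, Ndufaf1 and Sdha) and grey 45 that did not pass; the dashed line is the median of all tested genes, -0.029, under TMM scaling. With library size as the only scaling all values lie lower and 12 members are called higher and 11 lower.

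Complex I, the largest complex of the chain, was represented by 39 subunit genes as grouped by symbol. Of these, 32 were tested, and 13 were higher and 1 lower (edgeR). The shares were 40.6% and 3.12%, beside 20.6% and 21.7% of all tested genes. Outside the core matrix arm, 13 of 28 tested genes rose and 1 fell, with a median log2 fold change of 0.291. Of these 13, 11 encode accessory subunits, which surround the catalytic core; the others are Ndufa4, now placed in complex IV, and the pseudogene Ndufs5-ps. Ndufb6, an accessory subunit of the membrane arm, had 93.1 and 97 CPM in medium and 165.7 and 163.5 with TL1A. Both TL1A libraries lay well above both medium libraries, and the log2 difference was 0.79 (SE 0.08, edgeR adjusted p = 0.000273). Ndufc1, another small membrane-arm subunit, went from 53.4 and 62.8 CPM in medium to 97.8 and 95.6 with TL1A, again with no overlap, a log2 difference of 0.73 (SE 0.12, edgeR adjusted p = 0.00194). By symbol family, both Ndufc genes, 6 of 13 tested Ndufa genes and 3 of 10 Ndufb genes were higher. The remaining increases ran from 0.31 (Ndufa9) to 0.66 (Ndufa1) on the log2 scale. They include Ndufa11 at 0.47, whose promoter is shown above. Ndufa11, Ndufa13, Ndufa4, Ndufa5, Ndufa9 and Ndufs4 did not pass with library size only, nor when TL1A 1 was left out, and Ndufb8 and Ndufs5-ps did not pass with library size only.

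The core matrix arm of complex I, which carries the flavin and the iron-sulfur clusters, gave no calls with TMM. Of its 7 genes, 4 were tested, with 0 called in either direction (edgeR, DESeq2 and limma-voom, and 0 at an unadjusted p under 0.05). Among all tested genes 20.6% were called higher and 21.7% lower, and 4 genes are too few to set against these shares. With library size only, 2 of the 4, Ndufs3 and Ndufs7, were called lower (edgeR adjusted p = 0.0188 and 0.00502). Their median log2 fold change was -0.238 with TMM, against -0.029 for all tested genes. Ndufv1, which binds NADH and the flavin, had 334.7 and 369.9 CPM in medium and 410.6 and 376.9 with TL1A, and was called higher without medium 2. Ndufs7, which holds the last iron-sulfur cluster before ubiquinone, had 218.3 and 256.2 CPM in medium and 209.3 and 196.8 with TL1A, and was also called lower without medium 1. Ndufs3 had 59.3 and 50.3 CPM in medium and 43.5 and 48.5 with TL1A. The difference between core and accessory genes was not tested, since genes of a complex are not replicates of a condition.

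Ndufv3, an accessory subunit attached to the NADH-binding module, was the 1 complex I subunit called lower. Its level was 58.6 and 62.2 CPM in medium and 48.2 and 39.1 with TL1A, a log2 difference of -0.47 (SE 0.14, edgeR adjusted p = 0.0293). This call rests on single libraries: without medium 2 the adjusted p was 0.101, and without TL1A 2 it was 0.192 (edgeR). The gene has 2 transcript rows, and all of its reads lie in 1 of them. Members with several rows are described below. Ndufs5-ps, a transcribed pseudogene that the symbol rule takes in, had 307 and 368 reads in the medium libraries and 423 and 468 in the TL1A libraries and was called higher (log2 fold change 0.62, edgeR adjusted p = 0.00984), while Ndufs5 itself had 0 reads in every library; reads of such near-identical copies can be counted for either or for neither, so this increase may belong to either gene.

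Complex I assembly factors, chaperones that help build the complex and are not part of it, went both ways. All 8 were tested, and 2 were higher and 1 lower. Ndufaf3 rose from 72.1 and 71.6 CPM in medium to 105.6 and 95.1 with TL1A (log2 fold change 0.48, SE 0.10, edgeR adjusted p = 0.0079). Ndufaf6 had 15 and 21 reads in the medium libraries and 48 and 37 in the TL1A libraries, which gave a log2 difference of 1.46 (SE 0.40, edgeR adjusted p = 0.0213) on few reads. Without medium 1 the adjusted p of Ndufaf6 was 0.0877 and without TL1A 1 it was 0.145 (edgeR), and DESeq2 gave 0.0768. Ndufaf1 fell, from 74 and 77.7 CPM in medium to 59.1 and 53.3 with TL1A (log2 fold change -0.43, SE 0.11, edgeR adjusted p = 0.0173), and its call was lost without medium 2 (0.0739) and without TL1A 2 (0.124). Ndufaf3 did not pass with library size only or without TL1A 1.

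Complex II is both a respiratory complex and an enzyme of the TCA cycle, and its 4 genes did not move as one. Sdhb encodes the iron-sulfur subunit, and its level was 389.9 and 408.5 CPM in medium and 539.4 and 506.8 with TL1A (log2 fold change 0.39, SE 0.07, edgeR adjusted p = 0.00349). Sdhd, 1 of the 2 membrane anchors, had 317.6 and 336.6 CPM in medium and 441.1 and 428.2 with TL1A (log2 fold change 0.41, SE 0.07, edgeR adjusted p = 0.00272). For both genes the TL1A libraries lay above the medium libraries without overlap, and both fell short of the threshold with library size only. Sdhc, the other anchor, had 158.6 and 182.8 CPM in medium and 203 and 188.4 with TL1A, and did not pass (log2 fold change 0.20, SE 0.10, edgeR adjusted p = 0.143).

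Sdha, the flavoprotein subunit that oxidises succinate, was lower with TL1A. It had 1344 and 1432 CPM in medium and 1213 and 1201 with TL1A, a log2 difference of -0.20 (SE 0.06, edgeR adjusted p = 0.0334). The difference is small, and the call was lost with RLE factors (adjusted p = 0.093), with DESeq2 (0.0754), without medium 2 (0.114), without TL1A 1 (0.16) and without TL1A 2 (0.214; edgeR where not stated otherwise). Per kilobase of transcript, the level in medium was 479 CPM for Sdha, 350 for Sdhb, 266 for Sdhd and 53.8 for Sdhc. With TL1A the order of the first pair turned, with 458 for Sdhb and 416 for Sdha, followed by 353 for Sdhd and 61.7 for Sdhc.

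Among the 9 genes of complex III and cytochrome c, all tested, 3 were higher and 0 lower (edgeR). The higher ones make up 33.3%, beside 20.6% of all tested genes. An unadjusted p under 0.05 gave 4 and 0, and DESeq2 and limma-voom each gave 3 and 0. Uqcrq, a small subunit near the ubiquinone site, showed the smallest adjusted p of all members. Its level was 79.6 and 85.4 CPM in medium and 152.4 and 163.2 with TL1A, a log2 difference of 0.94 (SE 0.09, edgeR adjusted p = 0.000186). Uqcrb, a ubiquinone-binding subunit, rose from 81.1 and 90.3 CPM to 117.9 and 114.1 (log2 fold change 0.44, SE 0.10, edgeR adjusted p = 0.0104), a call lost with library size only and without TL1A 1. The third was Uqcr10, at 0.34, which lost its call under 6 of the alternatives, among them library size only and leaving out medium 1, TL1A 1 or TL1A 2.

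Neither of the following larger subunits of complex III passed. Uqcrc2, a core subunit, had 419.2 and 464.6 CPM in medium and 519.8 and 474.5 with TL1A (log2 fold change 0.17, edgeR adjusted p = 0.136; called higher without medium 2), and Uqcrfs1, the Rieske iron-sulfur protein, had 23 and 27.3 CPM in medium and 27.9 and 32.7 with TL1A (0.27, edgeR adjusted p = 0.228). Uqcrh, the hinge protein that docks cytochrome c, had 195.1 and 211.7 CPM in medium and 203.1 and 188.2 with TL1A, and the groups overlapped. Cycs, which encodes cytochrome c itself, was counted at a low level, with 6.37 and 5.84 CPM in medium and 10.7 and 8.79 with TL1A, on 78 to 115 reads. Both TL1A values were the higher ones, but the log2 difference of 0.67 (SE 0.23) did not pass (edgeR adjusted p = 0.0513). It passed with RLE factors (0.0437) and without the filter on low counts (0.0441, both edgeR). With upper quartile factors (0.0651) and library size only (0.176, both edgeR), limma-voom (0.0562) and DESeq2 (0.162) it did not. The log2 difference ran from 0.53 to 0.82 with single libraries left out.

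Complex IV had 18 genes by the rule, of which 10 were tested, and 4 were higher and 0 lower (edgeR, DESeq2 and limma-voom, and the same at an unadjusted p under 0.05). The higher ones make up 40%, beside 20.6% of all tested genes. Cox6c, a small subunit of the membrane part, rose from 134 and 150.5 CPM in medium to 230 and 222.9 with TL1A (log2 fold change 0.67, SE 0.09, edgeR adjusted p = 0.000775). Cox7a2, the form of subunit 7a found in most tissues, rose from 145.1 and 161.9 CPM to 237.8 and 232.7 (log2 fold change 0.62, SE 0.09, edgeR adjusted p = 0.00102). Both increases kept their call in every alternative run. Cox7b was higher by 0.48 and Cox6b1, whose promoter is shown above, by 0.42, from 207.6 and 220.3 CPM to 290.6 and 281.3; these 2 did not pass with library size only.

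Several complex IV subunits have tissue forms encoded by separate genes. Cox7a1, the heart and muscle form of subunit 7a, was present at 3.34 and 4.49 CPM in medium and 6.05 and 6.04 with TL1A, and did not pass (log2 fold change 0.62, SE 0.28, edgeR adjusted p = 0.12). The muscle form Cox6a2 had 0 to 1 read per library, and the testis form Cox6b2 and the forms Cox8b and Cox8c had 0 in all. Cox6b2 has 6 transcript rows, for which a count of 0 says little, as described below. Cox7b2 also had 0 reads. Ndufa4, once assigned to complex I and now placed in complex IV, rose from 235.2 and 259.9 CPM to 323.7 and 303.1 (log2 fold change 0.34, SE 0.08, edgeR adjusted p = 0.013), and Ndufa4l2, its paralogue known from hypoxia, had 5 reads in TL1A 1 and 0 in the other libraries. Cox4i2 had 0 to 2 reads per library.

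ATP synthase had 17 genes, of which 15 were tested, and 5 were higher and 0 lower (edgeR). The higher ones make up 33.3%, beside 20.6% of all tested genes. DESeq2 gave 4 and 0, and limma-voom and an unadjusted p under 0.05 gave 5 and 0. Atp5b, the catalytic beta subunit of the F1 head, had 161.3 and 136.7 CPM in medium and 227.3 and 280.5 with TL1A, a log2 difference of 0.77 (SE 0.13, edgeR adjusted p = 0.00226). Atp5o, which joins the head to the stalk, rose from 157.8 and 169.8 CPM to 264.7 and 253.3 (log2 fold change 0.66, SE 0.08, edgeR adjusted p = 0.000502). Atp5j2, Atp5e and Atp5k, which encode small subunits, were higher by 0.60, 0.48 and 0.40. Of these, Atp5e lost its call with library size only and Atp5k, shown above, under 7 of the alternatives, among them leaving out medium 1, TL1A 1 or TL1A 2. Atp5a1, the alpha subunit that forms the F1 head together with beta, had 1826 and 1740 CPM in medium and 1826 and 1910 with TL1A and did not pass (log2 fold change 0.07, SE 0.06, edgeR adjusted p = 0.404). With library size only its value turned to -0.19 and was called lower (edgeR adjusted p = 0.0324).

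**Figure D3:**
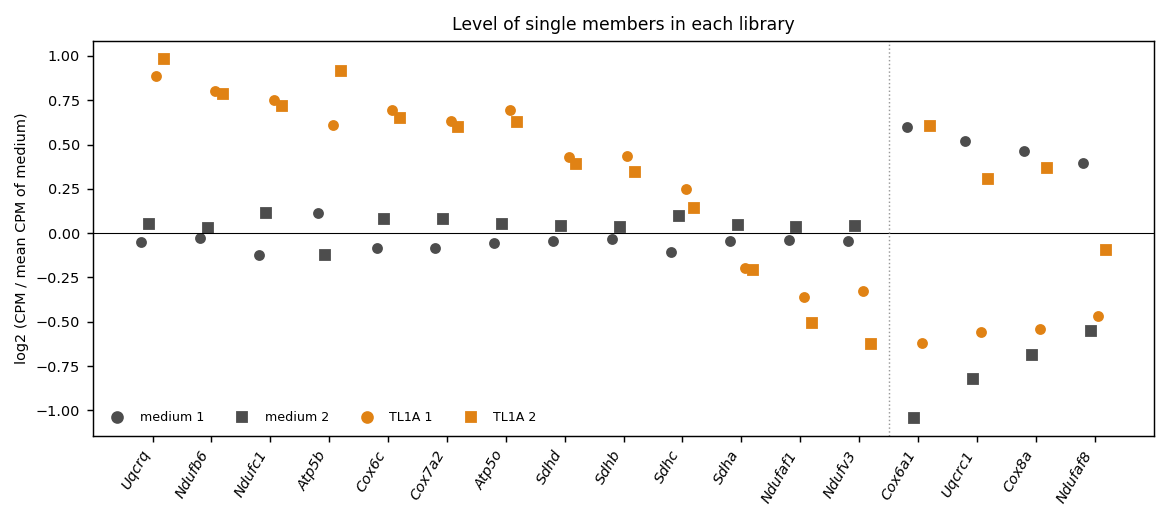
Level of 17 members in each of the 4 libraries, as log2 of CPM divided by the mean CPM of the medium libraries (vertical axis); grey marks medium, orange TL1A, circles replicate 1 and squares replicate 2. Left of the dotted line stand members named by complex, where the groups do not overlap; right of it are 4 members in which medium 1 and TL1A 2 lie above medium 2 and TL1A 1.

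Some members differed more between the libraries of a group than between the groups. Cox6a1, the widely expressed form of subunit 6a, had 92.7 and 29.7 CPM in medium and 39.8 and 93.1 with TL1A. Cox8a, the widely expressed form of subunit 8, had 20 and 8.99 CPM in medium and 9.95 and 18.7 with TL1A. Uqcrc1, a core subunit of complex III, had 586.9 and 231.5 CPM in medium and 278.4 and 506.6 with TL1A, on 2993 to 7370 reads, so this spread is not one of low counts. In all 3 genes medium 1 and TL1A 2 were the higher ones of their group. In 8 of the 78 tested members (10.3%) both of these libraries were at least 1.2-fold above their partner, among them Ndufaf8, Ndufb2, Atp5d and Atp5j, while 2 members showed the opposite arrangement. Among all tested genes, 800 (8.12%) showed the first arrangement, 447 the opposite one, and 471 and 330 were higher in replicate 1 or in replicate 2 of both groups. For these members a difference with TL1A could not be resolved with 2 libraries a group: Cox8a, for instance, had a log2 fold change of 0.67 without medium 1 and -0.45 without medium 2.

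A further set of members could hardly be measured. The deposited rows are transcripts, and many genes have several. The 82 members with 1 row had a median of 1185 reads per library, and 7 of them (8.54%) had a mean under 10. The 13 members with several rows had a median of 0.75 reads, and 10 of them (76.9%) had a mean under 10; the cause of this loss was not tested. Of the 17 members not tested, 8 had 0 reads in every library: Atp5g3, Cox4i1, Cox6b2, Cox7b2, Cox8b, Cox8c, Ndufs1 and Ndufs5. Cox4i1 and Ndufs1 encode constitutive subunits of complexes IV and I, so a count of 0 here is not read as absence of the transcript. The other 9 had at most 8 reads in any library: Atp5g1, Cox4i2, Cox6a2, Cox7a2l, Ndufa4l2, Ndufa7, Ndufs6, Ndufs8 and Ndufv2. All 3 genes of the ATP synthase c ring, Atp5g1, Atp5g2 and Atp5g3, are among those without a usable level; Atp5g2 was tested on 8 to 14 reads per library (log2 fold change -0.26, SE 0.55, edgeR adjusted p = 0.735).

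**Figure D4:**
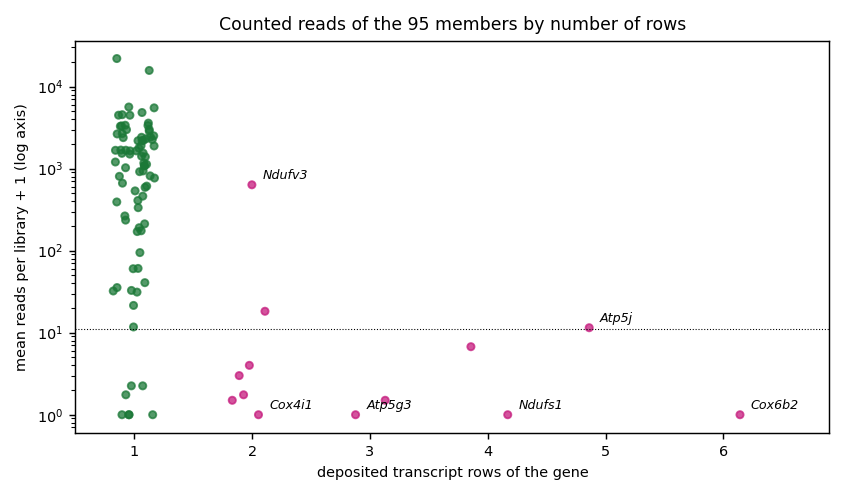
Mean reads per library plus 1, on a log axis, against the number of deposited transcript rows, for each of the 95 members; points are spread sideways for legibility and the dotted line marks a mean of 10 reads. Genes with 1 row (green) have a median of 1185 reads, and 10 of the 13 genes with several rows (magenta) lie under the line.

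Transcript length varied among the members, many of which are short. Across 74 tested members with a length, the log2 fold change had a Spearman rho of -0.102 with transcript length, against -0.0139 over 8471 tested single-row genes; these are correlations across genes that share the same libraries and are given as a description. Members of up to 700 nucleotides had a median log2 fold change of 0.339 (32 genes), and the 293 tested genes of that length, these members included, had 0.074. Members over 700 nucleotides had a median of 0.195, against -0.023 for all tested genes of that length. The part of transcript length in the increases was not tested further.

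Genes around the respiratory chain were examined by list, to be read beside the 20.6% of all tested genes called higher and 21.7% called lower. Other assembly factors, which insert copper, heme and iron-sulfur clusters or guide single complexes, gave 7 higher and 3 lower of 31 tested (edgeR). These shares are 22.6% and 9.68%, the first of them near that of all tested genes. Uqcc2, a factor for complex III, rose from 55 and 66.4 CPM in medium to 173.1 and 164.4 with TL1A (log2 fold change 1.47, SE 0.11, edgeR adjusted p = 5.59e-05). Cox17, the copper chaperone of complex IV, rose from 113.8 and 118.6 CPM to 210.5 and 202.7 (0.83, SE 0.08, edgeR adjusted p = 0.000172). Tmem126b, of the complex I assembly machinery, fell by 0.49 and Cox15, an enzyme of heme A synthesis, by 0.37 on the log2 scale; the first call was lost without TL1A 2, the second without medium 2, TL1A 1 or TL1A 2.

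**Figure D5:**
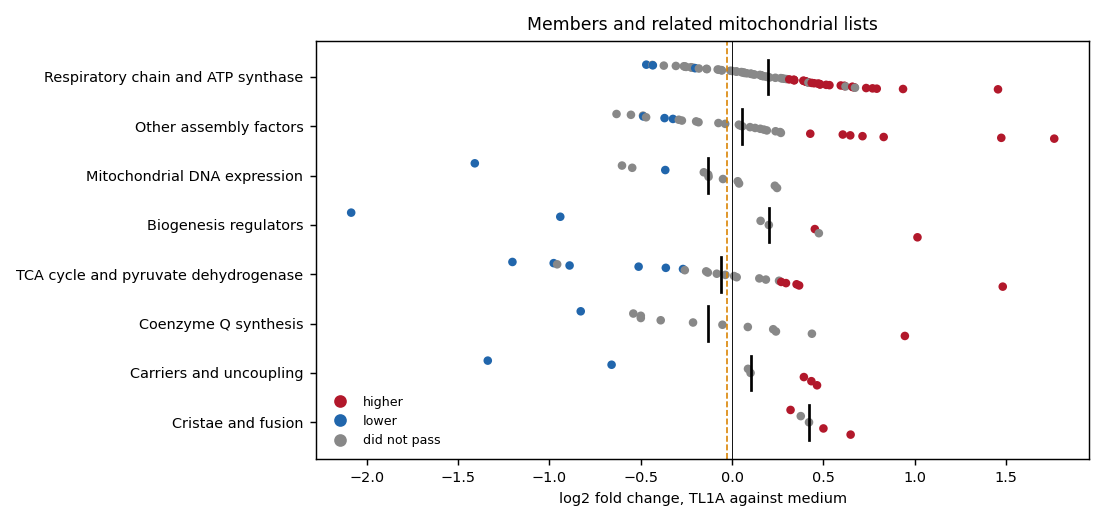
Log2 fold change of TL1A against medium (horizontal axis) for each tested member of the respiratory chain and ATP synthase genes and of 7 related lists; red marks genes called higher, blue genes called lower, grey those that did not pass, the black bar the median of a list and the dashed line the median of all tested genes under TMM scaling. The medians run from -0.133 (coenzyme Q synthesis) to 0.421 (cristae and fusion), and with library size only all values lie lower.

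The list for replication and transcription of mitochondrial DNA did not rise. Of 12 tested genes, 0 were higher and 2 lower (edgeR), with a median log2 fold change of -0.13. The lower ones make up 16.7%, beside 21.7% of all tested genes. An unadjusted p under 0.05 gave 0 and 3, DESeq2 gave 0 and 1, and limma-voom gave 0 and 2. Polg, the mitochondrial DNA polymerase, fell from 40 and 33.5 CPM in medium to 13.5 and 14.1 with TL1A (-1.41, SE 0.16, edgeR adjusted p = 0.000399), a call kept in every alternative. Twnk, the replicative helicase, had a log2 fold change of -0.37 (edgeR adjusted p = 0.0284), which was lost without any 1 of the 4 libraries and with DESeq2.

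Of the regulators of mitochondrial biogenesis, 2 of 7 tested genes were higher and 2 lower (28.6% each, against 20.6% and 21.7% of all tested genes). Pprc1, a coactivator of NRF1, rose from 43 and 50.1 CPM to 91.2 and 96.9 (log2 fold change 1.02, SE 0.12, edgeR adjusted p = 0.000453). Ppargc1b, a related coactivator, fell from 6.53 and 6.07 CPM to 1.40 and 1.55, on 15 to 82 reads (-2.09, SE 0.32, edgeR adjusted p = 0.00157). Yy1 was higher by 0.45 and Esrra, a nuclear receptor that works with these coactivators, had a value of -0.94 on 24 to 63 reads. The call of Esrra (edgeR adjusted p = 0.0472) was lost in 10 of the 13 alternatives run for it, each left-out library included, and that of Yy1 (0.0347) without medium 1 or TL1A 1 and in 3 others. Ppargc1a and Myc had 0 reads in every library and were not tested, and neither was Nrf1. These genes have 2, 4 and 6 transcript rows, for which a count at or near 0 says little, as described above.

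In the TCA cycle and pyruvate dehydrogenase list, 5 of 22 tested genes were higher and 6 lower, and the median was -0.061. These shares, 22.7% and 27.3%, are near the 20.6% and 21.7% of all tested genes. Mpc1, a subunit of the mitochondrial pyruvate carrier, rose from 14.2 and 14.5 CPM to 41 and 39.2 (log2 fold change 1.48, SE 0.14, edgeR adjusted p = 0.000158). Mpc2, another subunit of this carrier, fell from 11.7 and 8.01 CPM to 4.65 and 5.95 (-0.89, SE 0.28, edgeR adjusted p = 0.0382). The call of Mpc2 was lost with DESeq2, limma-voom and the replicate block, and without medium 1 or TL1A 1. Cs, citrate synthase, rose from 528.1 and 572.9 CPM to 732.4 and 687.8 (0.37, SE 0.07, edgeR adjusted p = 0.00556), but did not pass with library size only. Idh3a, the catalytic subunit of NAD-dependent isocitrate dehydrogenase, fell from 456.7 and 471.9 CPM to 337.7 and 313.7 (-0.51, SE 0.07, edgeR adjusted p = 0.00107). Pdha1, a subunit of pyruvate dehydrogenase, fell by 0.36 on the log2 scale, a call lost without TL1A 2.

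Of the carriers and uncoupling proteins, 3 of 7 tested genes were higher and 2 lower (42.9% and 28.6%, beside 20.6% and 21.7% of all tested genes). Slc25a4, an exchanger of ADP and ATP, rose from 390.5 and 411.9 CPM to 544.5 and 539.6 (log2 fold change 0.43, edgeR adjusted p = 0.00164; not with library size only), and Vdac2, a channel of the outer membrane, was higher by 0.47. Ucp2, an uncoupling protein of immune cells, fell from 640.5 and 697 CPM to 440.3 and 406.1 (-0.66, SE 0.08, edgeR adjusted p = 0.000417). Ucp3 fell from 10.2 and 13.3 CPM to 4.46 and 4.83 (-1.34, edgeR adjusted p = 0.004). In the list named for coenzyme Q synthesis, 1 of 12 tested genes was higher (Coq10b, 0.95, on few reads, a call lost without any 1 library) and 1 lower (Coq10a, -0.83). Each is 8.33% of the list, under the shares of all tested genes. No tested Pdss gene, and none of those tested from Coq2 to Coq9, was called. The cristae and fusion list had 5 tested genes of 11, with 3 higher and 0 lower (edgeR, DESeq2 and limma-voom, and the same at an unadjusted p under 0.05): Apool was higher by 0.65, Chchd3 by 0.32 and Phb2 by 0.50, of which the calls of Chchd3 and Phb2 were lost with library size only and in several left-out libraries.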

How the data were processed

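RNA was sequenced in 4 libraries, 2 from cells in medium and 2 from cells with TL1A. The SMARTer Ultra Low Input RNA Kit was used for cDNA, per the labels' protocols. Per the submitters' processing notes, CASAVA, STAR and HTSeq were used, on build mm9; the sources used here do not give their versions, the strand setting or the annotation. The authors deposited unnormalized counts of reads for each RefSeq transcript, in 33535 rows. Another 5 HTSeq summary rows, with 69.9% to 71.3% of each column, were left out. Ambiguous reads made up 33.7% to 34% of assigned plus ambiguous reads. Rows were matched to symbols through RefSeq (GRCm38.p6, names only; 33154 matched, 381 did not) and summed per gene.

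The counts of all genes were fitted with edgeR 4.0.16 under R 4.3.3 (quasi-likelihood test with group alone, two-sided, TMM factors, filterByExpr with minimum count 10, Benjamini-Hochberg adjusted p under 0.05), a script also tested on simulated data. The biological coefficient of variation was 0.12. SE is the log2 fold change over the root of F, and lengths are those of matched reference transcripts. Alternatives were RLE factors, upper quartile factors, library size only, DESeq2 1.42.0, limma-voom (limma 3.58.1), no filter, genes with 1 row, the replicate number as a block and each library left out. Members and lists were chosen with earlier results of these data known. Genes named are, per complex, the 2 largest called increases and decreases with a mean of at least 10 counts; complex II, Cycs and the tissue forms; members with no or the fewest reads; and the 2 smallest p per direction in each related list. Others were named after their values were seen. Some genes are not reported here.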

Additional observations from a re-analysis of the deposited data

How the results depend on the processing

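Of 32 called members, 11 kept their call in every alternative run, all of them higher: Atp5b, Atp5j2, Atp5o, Cox6c, Cox7a2, Ndufa1, Ndufb6, Ndufb7, Ndufc1, Ndufc2 and Uqcrq. Leaving out each library in turn, 18 kept it. Members called higher ranged from 18 (without TL1A 1) to 34 (without medium 2), and members called lower from 0 (without TL1A 2) to 4 (without medium 1). With library size only, 12 were higher and 11 lower, and the medians became -0.037 for complex I subunits, -0.201 for complex I assembly factors, 0.035 for complex II, 0.01 for complex III with cytochrome c, 0.014 for complex IV and -0.105 for ATP synthase. Upper quartile factors gave 0.164 for complex I subunits and 0.235 for complex II, and without a filter complex IV had 0.16. Leaving out single libraries moved these medians from 0.214 to 0.274 for complex I subunits, from 0.008 to 0.262 for complex I assembly factors, from 0.219 to 0.391 for complex II, from 0.22 to 0.425 for complex III, from 0.236 to 0.425 for complex IV and from 0.096 to 0.185 for ATP synthase. The shared replicate numbers of the titles carry no stated meaning, and deviations of same-numbered libraries correlated at -0.143 over 9852 genes and at -0.364 over the 6698 with a mean of at least 100 counts; with a replicate block 27 members were higher and 1 lower, and Sdha (adjusted p = 0.141), Ndufv3 (0.0541), Atp5k, Uqcr10, Twnk (0.0697) and Cox15 (0.0547) were among the genes not called (edgeR). Crossing the numbers, an alternative chosen after seeing the data, gave 36 higher and 7 lower. Testing each deposited row on its own, also added then, gave 29 higher and 3 lower. With library size only, 22 of the 46 members without a call turned negative, Ndufv1 (-0.098), Uqcrc2 (-0.088) and Atp5a1 (-0.19) among them, and 8 were called lower. Among genes named by rule, values without a call changed sign for Cox6a1 (-0.131 with library size only, -0.609 to 1.16 without single libraries), Cox8a (0.02 with RLE factors, 0.017 with DESeq2, 0.053 with limma-voom, 0.028 with the replicate block, 0.013 with the numbers crossed, -0.529 to 0.671 without single libraries), Sdhc (-0.062 with library size only) and Uqcrh (-0.122 to 0.031 without single libraries). Causes of these changes were not tested. Depth limits members with few reads, such as Ndufaf6 and Cycs.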
